A study of Mus musculus with 4 samples.

Results

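The genes described here are those whose levels differed from control in opposite ways in mouse zygotes, the fertilised eggs before their first division, of an experiment with lowered histone H3.3 RNA and of one with an injection labelled as mutant H3.3. For each gene the log2 ratio of injected over control zygotes was taken in an experiment labelled S31A and in one labelled MO, and the MO ratio was subtracted from the S31A ratio. A gene counted as measured where 1 or more of the 4 samples reached 10 CPM (counts scaled to library size), which held for 8981 of 55291 features in the count table. Of these, 540 genes (6.01% of the measured genes) lay at least 2-fold up in one experiment and at least 2-fold down in the other, and they are called opposite genes below. The groups are 3.3-MO-con, 3.3-MO-inject, 3.3S31A-con and 3.3S31A-inject, with 1 sample each and 2 count columns, here called libraries, per sample. They are written as control and injected zygotes of the MO and of the S31A experiment, and each experiment has its own control. MO is not explained in the labels; in embryo work it usually means morpholino, an antisense oligonucleotide, and S31A is the usual notation for serine 31 replaced by alanine. Strain, age, embryos per sample, the hour of collection, what the controls received, and whether the S31A zygotes also received the MO are not given in the sources used here. With 1 sample per group no test between conditions was possible, and every spread below is between the libraries within a sample, and may be technical.

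H3.3, a histone H3 variant, enters chromatin without DNA replication, and mouse H3f3a and H3f3b encode the same protein. Maternal H3.3 is placed on the sperm genome after protamines leave it. Serine 31 is a residue that the replication-coupled forms of H3 lack, and it can be phosphorylated. A zygote carries mostly RNA stored by the egg, while transcription of its own genome is only beginning.

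Both experiments act on H3.3, so the codon for serine 31 is shown in both genes and in a pair of pseudogenes whose counts lay farthest apart between the experiments. Each line is a stretch of the transcript in GENCODE M21 (mm10), 5′ to 3′, aligned to 60 coding bases of H3f3b from base 64 on, and capitals mark the aligned codon 32 counted from the start codon, which is serine 31 of the protein without its first methionine.
H3f3b: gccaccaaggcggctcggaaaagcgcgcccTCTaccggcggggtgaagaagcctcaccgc
H3f3a: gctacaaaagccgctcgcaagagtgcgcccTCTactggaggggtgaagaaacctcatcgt
Gm6485: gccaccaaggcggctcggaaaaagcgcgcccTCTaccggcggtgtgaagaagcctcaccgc
Gm37486: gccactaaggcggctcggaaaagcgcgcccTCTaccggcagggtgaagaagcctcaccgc
H3f3b lies at chr11:116021912-116027962 on the minus strand and H3f3a at chr1:180800832-180813943 on the minus strand. Gm6485 (chr3:104752727-104753165, minus strand) is a transcribed processed pseudogene and Gm37486 (chr1:178299396-178299800, plus strand) a processed pseudogene, that is, an intronless copy of an mRNA. Over the aligned bases Gm6485 was 98.6% and Gm37486 98.2% identical to the H3f3b coding sequence, against 76.7% for H3f3a. In the window Gm6485 had 1 mismatch and 1 inserted base, Gm37486 had 2 mismatches and H3f3a had 12. Reads of H3f3b and of these copies can be near-identical, and no source used here says how reads with several matches were counted, so the split of counts between the 3 features is uncertain.

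The libraries held 5661621 to 13233371 counts. The MO control libraries had 14895 and 15156 genes detected, the MO injected libraries 13159 and 13359, and the 4 S31A libraries 11372 to 11791. Mitochondrially encoded genes took 3.47% to 5.55% of counts in the MO experiment and 7.13% to 10.36% in the S31A experiment, so the experiments differ in more than the injection and experiment and injection cannot be told apart in a difference between them. All 12 zygote and oocyte markers were measured, with a summed level of 11000 to 17090 CPM per library, and none was an opposite gene. Of 12 cumulus and granulosa cell markers only Cyp19a1 and Star were measured, 6 (Amh, Foxl2, Fshr, Has2, Ptx3 and Tnfaip6) were at 0 in all 8 libraries, and none was opposite. Their summed level was 46.7 and 49.98 CPM in MO control, 53.3 and 91.2 in MO injected, 58.6 and 90.2 in S31A control and 66.5 and 166 in S31A injected libraries. Each sample is bulk RNA and CPM is relative, so fewer embryos with a transcript and less of it per embryo cannot be told apart. None of 7 sperm markers and none of 5 blood cell markers was measured.

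H3f3b had 2199 and 1550 CPM in MO control, 2.30 and 10.5 in MO injected, 1453 and 1819 in S31A control, and 2438 and 2749 in S31A injected. It was low in both MO injected libraries and highest in both S31A injected libraries, and injected and control libraries did not overlap in either experiment. On the log2 scale the MO ratio was -8.48 and the S31A ratio 0.67, a difference of 9.15 ± 1.09 (SE over libraries). H3f3a, which encodes the same protein, had 462 and 586 CPM in MO control, 8.04 and 52.4 in MO injected, 657 and 563 in S31A control, and 484 and 648 in S31A injected libraries. It was low in the MO injected libraries, and in the S31A experiment injected and control libraries overlapped. Its log2 difference was 4.53 ± 1.37. Neither gene is an opposite gene, since neither was 2-fold up with S31A.

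The pseudogenes were opposite genes, and they had the 2 largest differences among the measured genes. Gm6485 had 137 and 184 CPM in MO control, 0.306 and 2.29 in MO injected, 171 and 157 in S31A control, and 8172 and 17053 in S31A injected libraries. Gm37486 had 116 and 155 CPM in MO control, 0.0766 and 0.327 in MO injected, 127 and 98.0 in S31A control, and 5798 and 11686 in S31A injected libraries. The 4 control libraries were close to each other for both features, and no injected library overlapped them. The log2 ratios of Gm6485 were -7.15 with MO and 6.17 with S31A, a difference of 13.32 ± 1.29. Those of Gm37486 were -8.465 and 6.204, a difference of 14.67 ± 0.74.

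edgeR's quasi-likelihood test of the difference, run over the 8 libraries, called 3 features as higher (0.0334% of those measured) and 0 as lower (0%) at a Benjamini-Hochberg adjusted p under 0.05. They were Gm37486 (adjusted p = 0.000148), Gm6485 (adjusted p = 0.00284) and H3f3b (adjusted p = 0.0125), and H3f3a was not called (adjusted p = 0.589). At an unadjusted p under 0.05 the same test had 573 genes (6.38%) in both directions. DESeq2 called 78 higher (0.869%) and 68 lower (0.757%). These p-values measure the spread between libraries of a sample and do not test the conditions. Without either S31A control library Gm37486 alone was called, and H3f3b had adjusted p = 0.172 and 0.165 and Gm6485 0.125 and 0.12. H3f3b was not called either without MO control library 1 or 2 (adjusted p = 0.11 and 0.0724) or without S31A injected library 1 or 2 (0.0649 and 0.0794), and H3f3a was called without MO injected library 2 (0.0179).

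**Figure D1:**
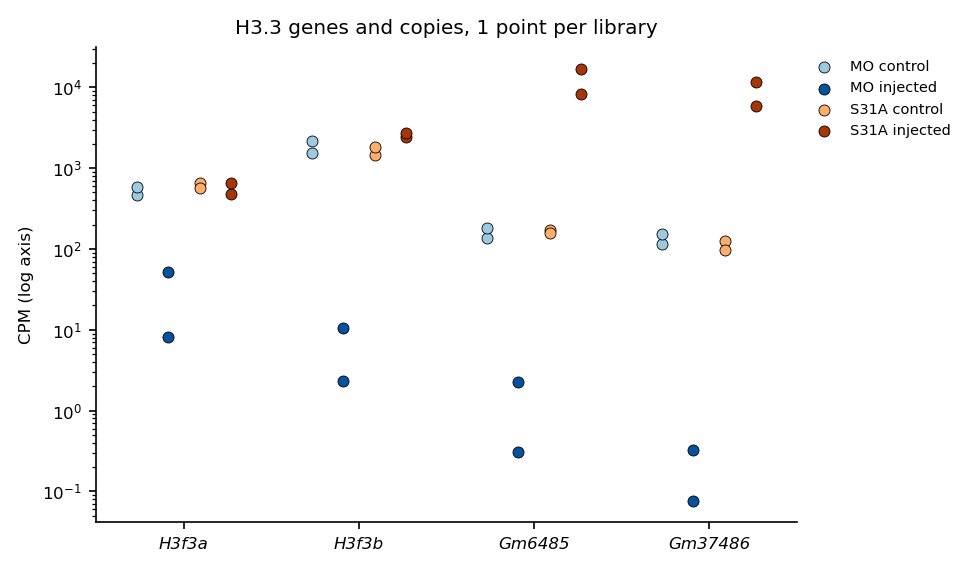
CPM on a log axis for H3f3a, H3f3b and the pseudogenes Gm6485 and Gm37486, with 1 point per library and 1 colour per group. All 4 features are lowest in the MO injected libraries, and the pseudogenes stand far above every control in the S31A injected libraries (8172 and 17053 CPM for Gm6485).

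Over all measured genes, the S31A ratio exceeded the MO ratio at least 4-fold for 1136 genes (12.6%) and was at least 4-fold below it for 837 genes (9.32%). By at least 2-fold, MO injected zygotes had 809 genes up (9.01%) and 1668 down (18.6%), and S31A injected zygotes had 1535 up (17.1%) and 1743 down (19.4%). Of the 540 opposite genes, 358 (3.99%) were up with S31A and down with MO, and 182 (2.03%) were down with S31A and up with MO. Genes moved the same way were more numerous, with 211 (2.35%) up in both and 501 (5.58%) down in both, 712 (7.93%) in all. Across the 8981 genes the ratios of the experiments had a Pearson correlation of 0.0522 and a Spearman correlation of 0.0863, given as a description of points that share libraries.

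A stricter class was formed from genes whose 2 injected libraries both lay on 1 side of both control libraries in each experiment. This kept 166 opposite genes (1.85%), of which 102 (1.14%) were up with S31A and down with MO and 64 (0.713%) the reverse. The same rule kept 258 genes moved the same way (2.87%), 80 up in both (0.891%) and 178 down in both (1.98%). When nearest injected and control libraries also had to be 2-fold apart in both experiments, 40 opposite genes (0.445%) and 39 same-way genes (0.434%) were left. The 40 were 29 up with S31A and down with MO (0.323%) and 11 of the reverse (0.122%), and the 39 were 12 up in both (0.134%) and 27 down in both (0.301%). With libraries separated but no fold required, 298 genes were up with S31A and down with MO (3.32%), 261 the reverse (2.91%), 358 up in both (3.99%) and 440 down in both (4.9%). At the strictest rule, about as many genes were well separated in opposite ways as in the same way. Of these 40 opposite genes, however, only 3 (7.5%) had mean control levels within 2-fold of each other, against 64.5% of all measured genes. A library at 0 counts was found for 28 of the 40 (70%), against 18.9% of all measured genes. At the fold threshold, Cib1, Hspb6 and Stim2 lay just inside, with the smaller absolute log2 ratio at 1.003, 1.013 and 1.019, and Ablim1, Znrd1as and Gatad1 just outside, at just under 1.

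**Figure D2:**
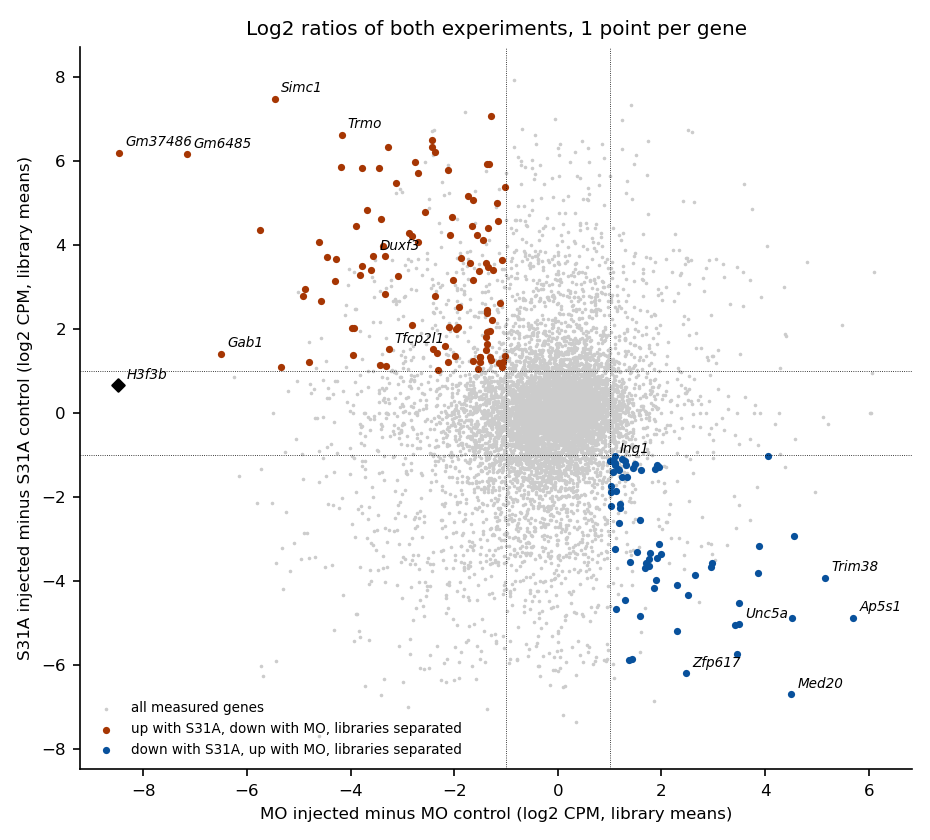
Log2 ratio of injected over control in the MO experiment (x axis) and in the S31A experiment (y axis), 1 grey point per measured gene, with the 102 and 64 separated opposite genes in colour and dotted lines at 2-fold. Most genes sit in a cloud at the centre, and Gm37486 and Gm6485 lie at the far upper left beside Simc1 and Trmo.

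The separated genes up with S31A and down with MO were led by genes that were undetected in both S31A control libraries. Simc1 (chr13:54503779-54551290), for a protein with SUMO-interacting motifs, had 5.22 and 30.1 CPM in MO control, 0.230 and 0 in MO injected, 0 and 0 in S31A control, and 35.9 and 34.9 in S31A injected libraries. It was thus present in MO control and S31A injected zygotes and nearly absent from the other samples. Against a floor of 3 counts it was at least 262-fold higher with S31A injection, and its summed log2 ratio with MO was -6.75, with an exact 95% interval of -9.04 to -5.19. Trmo, a tRNA methyltransferase, had 6.19 and 20.6 CPM in MO control, 0 and 1.86 in MO injected, 0 and 0 in S31A control, and 18.5 and 20.4 in S31A injected libraries. It had the same pattern of samples and was at least 143-fold higher with S31A injection. Tubgcp3, a subunit of the gamma-tubulin complex that nucleates microtubules, had 6.19 and 2.63 CPM in MO control, 0.0766 and 0 in MO injected, 0 and 0 in S31A control, and 8.61 and 15.0 in S31A injected libraries. With S31A injection it was at least 84.5-fold higher. Tubgcp3, and Pou2f3 and Nit1 below, passed the 10 CPM filter only through the S31A injected sample, which favoured their being up with S31A. Armc7, Ezr and Plcb4 below passed it only through MO control, which favoured their being down with MO.

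Armc7, an armadillo repeat gene, had 6.74 and 16.1 CPM in MO control and 11.8 and 1.18 in S31A injected libraries, and was at 0 in the other 4. It was at least 74.7-fold lower with MO and at least 52.2-fold higher with S31A. Pou2f3, a POU homeobox transcription factor, had 0.543 and 9.70 CPM in MO control and 12.02 and 10.3 in S31A injected libraries, and was likewise at 0 in the other 4. It was at least 29.9-fold lower with MO and at least 83.1-fold higher with S31A, and its MO control libraries lay far apart. Ezr, which encodes ezrin, a linker of the cell membrane to actin, had 8.48 and 20.6 CPM in MO control, 0 and 3.93 in MO injected, 0 and 0 in S31A control, and 7.25 and 2.36 in S31A injected libraries. With S31A it was at least 37.5-fold higher. Plcb4, a phospholipase C of calcium signalling, had 29.5 and 16.9 CPM in MO control, 0.0766 and 10.9 in MO injected, 0 and 0 in S31A control, and 6.22 and 4.71 in S31A injected libraries, at least 41.01-fold higher with S31A.

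Tnfsf11, the cytokine RANKL, had 35.1 and 18.7 CPM in MO control, 0.919 and 4.80 in MO injected, 1.12 and 0 in S31A control, and 45.7 and 18.4 in S31A injected libraries. All 4 of its low libraries lay below 5 CPM and all 4 high ones above 18. Its log2 difference was 9.29 ± 1.91. Nit1, an amidase of the nitrilase family, had 3.48 and 4.93 CPM in MO control, 0 and 0 in MO injected, 3.83 and 0 in S31A control, and 12.1 and 11.03 in S31A injected libraries. Manea, a mannosidase of the Golgi, differed by 7.96 ± 3.32 on the log2 scale, and Tmed3, a cargo receptor of the secretory pathway, by 7.30 ± 2.42. For both, libraries of the same sample were far apart: Manea had 16.7 and 0.0879 CPM in the S31A control libraries, and Tmed3 had 58.6 and 14.02 in the S31A injected ones. None of these genes was called by edgeR's quasi-likelihood test of the difference. The lowest Benjamini-Hochberg adjusted p among them was that of Simc1, 0.338. DESeq2, which also measures only the spread between libraries, called some of them, such as Simc1 (adjusted p = 1.92e-08). It did not call others, such as Manea (adjusted p = 0.444).

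The separated genes down with S31A and up with MO were led by genes that were low or undetected in MO control and S31A injected zygotes. Med20 (chr17:47611582-47624418), a subunit of the Mediator complex that links transcription factors to RNA polymerase II, had 3.15 and 0.164 CPM in MO control, 25.0 and 24.8 in MO injected, 39.0 and 33.7 in S31A control, and 0.426 and 0 in S31A injected libraries. Its 2 high samples reproduced between libraries, and its log2 difference was -11.20 ± 1.81, the lowest of the measured genes. Ap5s1, a subunit of the AP-5 adaptor of endosomes, had 0 and 0 CPM in MO control, 18.6 and 5.46 in MO injected, 5.14 and 17.0 in S31A control, and 0.341 and 0 in S31A injected libraries. It was at least 69.7-fold higher with MO, and its log2 difference was -10.57 ± 1.41. Adgrg2, an adhesion G protein-coupled receptor, had 8.96 and 2.07 CPM in MO injected and 26.8 and 1.06 in S31A control libraries and was at 0 in the other 4. It was at least 32.4-fold higher with MO and at least 94.8-fold lower with S31A. Its S31A control libraries did not reproduce each other, so the S31A bound rests mostly on library 1. Adgrg2, and Lix1l below, passed the 10 CPM filter only through S31A control, and Casp9 and Nagpa below only through MO injected zygotes. In each case the filter favoured the direction seen.

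Ppara, a nuclear receptor that switches on fatty acid oxidation, had 2.93 and 0.658 CPM in MO control, 21.7 and 15.5 in MO injected, 25.1 and 0.615 in S31A control, and 0 and 0 in S31A injected libraries. Its S31A control libraries did not reproduce each other, while both S31A injected libraries were at 0, at least 87.5-fold lower. Unc5a, a netrin receptor, had 1.09 and 1.81 CPM in MO control, 51.1 and 6.22 in MO injected, 5.23 and 17.4 in S31A control, and 0.256 and 0 in S31A injected libraries. Casp9, the initiator caspase of the mitochondrial death pathway, had 0.109 and 2.79 CPM in MO control, 15.5 and 32.3 in MO injected, 8.78 and 2.55 in S31A control, and 1.96 and 0 in S31A injected libraries. Its samples were separated in both experiments, but by little in the S31A one. Trim38, a ubiquitin ligase of innate immunity, Bnip5, Olfr221, an olfactory receptor, Nagpa, an enzyme of lysosomal sorting, Lix1l and Adcyap1r1, the receptor of the neuropeptide PACAP, completed the 12 named genes of this direction. Their log2 differences ran from -9.07 ± 3.12 for Trim38 to -6.54 ± 2.79 for Lix1l. Of these 12, Med20 had the lowest adjusted p of edgeR's quasi-likelihood test, 0.465, and was not called. DESeq2 called Med20 (adjusted p = 4.78e-05) but not, for example, Olfr221 (adjusted p = 0.483).

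**Figure D3:**
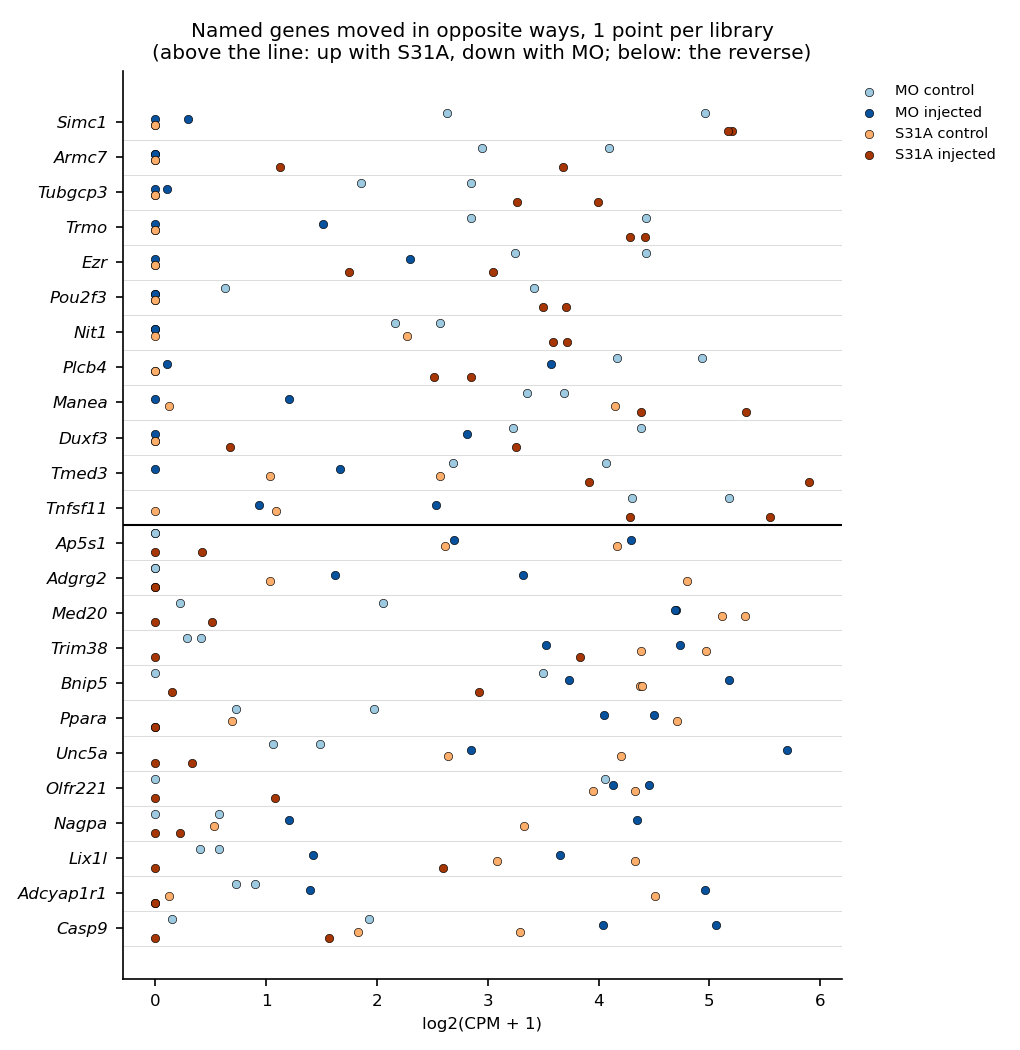
Level of the 24 named genes as log2(CPM + 1), 1 point per library, with the 12 genes up with S31A and down with MO above the black line and the 12 of the reverse direction below it. Above the line most S31A control and MO injected points lie at low values, and below it most MO control and S31A injected points do. Exceptions include an S31A control library of Manea (16.7 CPM) and an MO control library of Olfr221 (15.6 CPM).

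The difference of ratios can also be read as the gap between the injected samples minus the gap between the controls, and the controls were far apart for most separated opposite genes. Of the 102 genes up with S31A and down with MO, 83 were at least 2-fold lower in S31A control than in MO control, with a median log2 gap of -2.48. Of the 64 genes of the reverse direction, 45 were at least 2-fold higher in S31A control, with a median gap of 1.54. Over all measured genes 64.5% had controls within 2-fold, against 20.5% of the separated opposite genes and 53.9% of the separated same-way genes. Part of this is built into the rule, since a low S31A control raises the S31A ratio and a high MO control lowers the MO ratio. Gm7072, a gene of chromosome 17 chosen here after its values were seen, had a wide gap between the controls. It was not an opposite gene, since its MO log2 ratio was -0.84, under 2-fold. Its levels were 47.7 and 31.9 CPM in MO control, 20.9 and 22.5 in MO injected, 0 and 0.0879 in S31A control, and 75.8 and 44.5 in S31A injected libraries. Only its S31A control was low, and its adjusted p by edgeR's quasi-likelihood test was 0.056. With the filter at 1 CPM or at 50 CPM the same test called it.

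For 34 separated opposite genes, 19 up and 15 down with S31A, the mean log2 levels of the controls lay within 2-fold of each other. By these means the gap between the injected samples was larger than the gap between the controls, as the rule requires. The controls still contributed to some differences. For Ing1, described below, the log2 gap of S31A over MO was -1.44 between injected samples and 0.74 between controls. For some the control libraries disagreed: Kdr had 1.96 and 17.8 CPM in MO control and 0.0934 and 39.8 in S31A control. Genes of this class were chosen for description after their values were seen, apart from the H3.3 pseudogenes and the members of gene lists named by rule. Gab1 (chr8:80764438-80880519), an adaptor of receptor tyrosine kinases and an imprinted gene whose maternal copy is silenced through H3K27 methylation in early embryos, had 22.6 and 13.97 CPM in MO control, 0 and 0 in MO injected, 16.3 and 9.23 in S31A control, and 40.9 and 26.5 in S31A injected libraries. It was undetected only in the MO injected libraries, at least 137-fold lower, and highest in the S31A injected ones. Its log2 difference was 7.91 ± 0.61, with an adjusted p of 0.329 by edgeR's quasi-likelihood test, the lowest of the separated opposite genes after the pseudogenes. DESeq2 called Gab1 (adjusted p = 1.76e-05), so the tests over libraries disagreed. Xylb, a xylulose kinase, had 5.43 and 8.22 CPM in MO control, 0 and 0.109 in MO injected, 3.55 and 8.53 in S31A control, and 11.2 and 15.1 in S31A injected libraries. Only the S31A injected sample took Xylb past the 10 CPM filter. Tfcp2l1, a transcription factor of the naive pluripotent state, had 6.19 and 12.5 CPM in MO control, 0.383 and 1.31 in MO injected, 12.1 and 5.71 in S31A control, and 23.2 and 25.8 in S31A injected libraries. Like Gab1 and Xylb, it had control levels in the middle and injected samples on either side. The rule of this class fixes that ordering of sample means, so it is not a separate result.

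At higher levels genes of this class, whose ordering the rule fixes, had smaller folds. Fgf7 (chr2:126034658-126091185), a fibroblast growth factor, had 38.6 and 53.8 CPM in MO control, 15.3 and 22.3 in MO injected, 33.5 and 52.3 in S31A control, and 92.6 and 110 in S31A injected libraries. Its control libraries spanned similar ranges in both experiments, and its log2 difference was 2.56 ± 0.50. Aqr, a helicase of the spliceosome, had 29.0 and 15.1 CPM in MO control, 9.04 and 6.88 in MO injected, 9.44 and 17.3 in S31A control, and 48.5 and 42.8 in S31A injected libraries, a log2 difference of 3.21 ± 0.67. Kif2c, a kinesin that removes tubulin from microtubule ends, had 22.6 and 22.7 CPM in MO control, 2.76 and 9.06 in MO injected, 17.8 and 7.21 in S31A control, and 33.4 and 20.9 in S31A injected libraries. In the S31A experiment its nearest injected and control libraries were 20.9 and 17.8 CPM, so they were separated narrowly. Rfx5, an activator of MHC class II genes, Emc3, a subunit of the insertase of the endoplasmic reticulum, Hltf, a helicase of stalled replication forks, and Nr2e3, a nuclear receptor, had log2 differences of 2.59 ± 0.73, 3.02 ± 1.21, 3.82 ± 1.54 and 3.27 ± 1.04.

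In the reverse direction Ing1 (chr8:11555571-11563251), a reader of H3K4 methylation in a histone deacetylase complex, had 85.7 and 133 CPM in MO control, 267 and 190 in MO injected, 189 and 169 in S31A control, and 84.8 and 80.5 in S31A injected libraries. It was highest in the MO injected and lowest in the S31A injected libraries, and its log2 difference was -2.19 ± 0.41. Snapin, a SNARE-associated protein, had 32.3 and 15.6 CPM in MO control, 47.4 and 56.6 in MO injected, 20.7 and 59.7 in S31A control, and 7.67 and 7.60 in S31A injected libraries. Bcl2l11, which encodes the death-promoting protein BIM, had 23.9 and 27.9 CPM in MO control, 67.7 and 47.4 in MO injected, 58.4 and 25.2 in S31A control, and 18.3 and 5.89 in S31A injected libraries. Both genes were low in S31A injected zygotes, with log2 differences of -3.38 ± 0.93 and -2.99 ± 1.04. Prmt5, an arginine methyltransferase of histones and splicing proteins, Stat5a, a transcription factor of cytokine signalling, and Rfc5, a subunit of the clamp loader of DNA replication, had log2 differences of -2.52 ± 0.94, -2.43 ± 1.05 and -2.12 ± 0.80. Mrps12, a protein of the mitochondrial ribosome, had 3.15 and 5.26 CPM in MO control, 11.7 and 13.8 in MO injected, 1.495 and 18.7 in S31A control, and 0 and 0 in S31A injected libraries. Its S31A control libraries were far apart, and with S31A it was at least 72.6-fold lower.

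**Figure D4:**
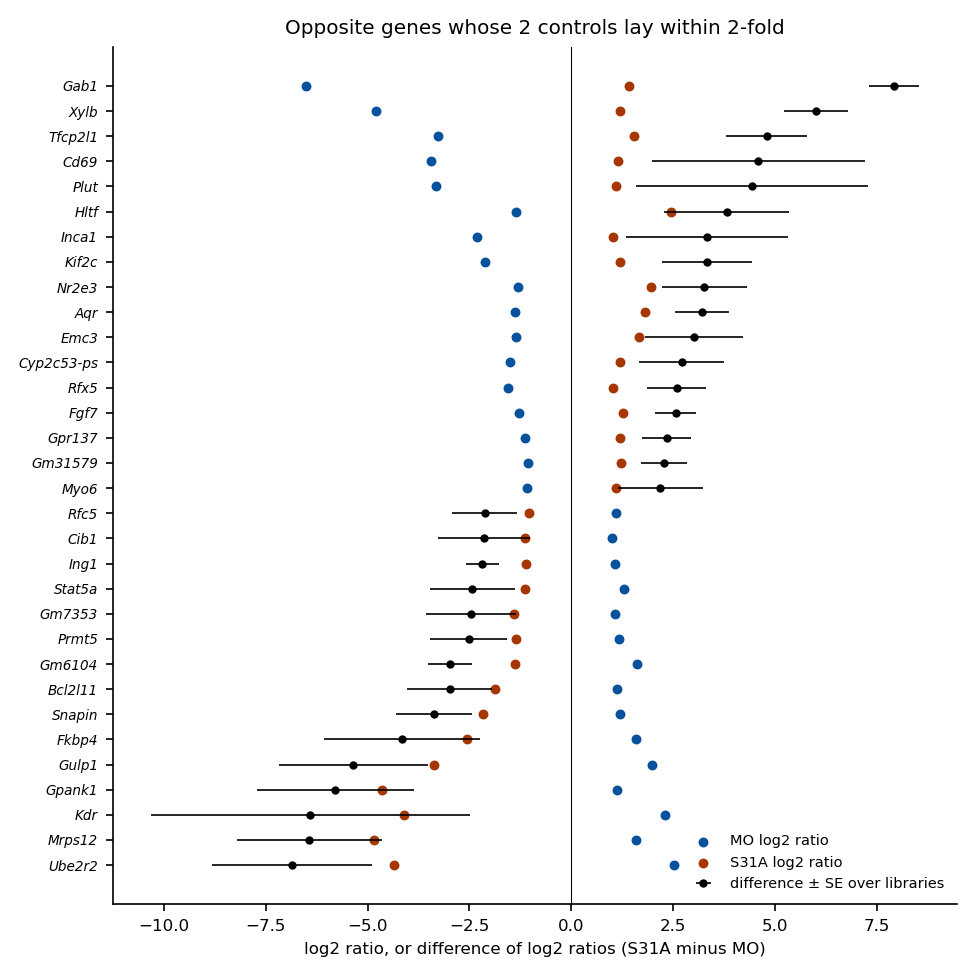
MO log2 ratio, S31A log2 ratio and their difference (black, with bars of 1 SE over libraries) for the separated opposite genes whose controls lay within 2-fold, leaving out the H3.3 pseudogenes. Gab1 has the highest difference, 7.91, and Ube2r2 the lowest, -6.86, and the bars of Kdr and Plut are among the widest.

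Leaving out each of the 8 libraries in turn kept 43 of the 166 separated opposite genes in the class every time, 30 up with S31A and 13 down. Fewer libraries make separation easier, so this mainly checked the 2-fold rule and the 10 CPM filter, not separation. With the scaling, the prior count and the summing of libraries also varied, 42 were kept, 29 up and 13 down. Besides both pseudogenes, Simc1, Trmo, Pou2f3, Tnfsf11, Nit1, Plcb4, Tmed3, Irf1 and Hspa2 were kept among those up with S31A, and Med20, Ap5s1, Ppara, Unc5a, Casp9, Bnip5, Zfp617 and Mrps12 among those down. Gab1, whose S31A ratio is modest, was not. Of the 42, only both pseudogenes, Gm6104 and Mrps12 had mean control levels within 2-fold of each other, so most kept genes differed between the controls as well. Med14 and Coa5, which were kept and are named here after their values were seen, had some of the tightest values. Med14 (chrX:12675369-12762073), the scaffold subunit of Mediator, had 66.9 and 56.7 CPM in MO control, 15.4 and 16.05 in MO injected, 19.1 and 38.6 in S31A control, and 92.2 and 127 in S31A injected libraries. Coa5, an assembly factor of cytochrome c oxidase, had 47.2 and 35.3 CPM in MO control, 8.73 and 9.93 in MO injected, 13.6 and 16.4 in S31A control, and 59.6 and 64.7 in S31A injected libraries. Both were high in MO control and S31A injected zygotes, with nearest libraries of injected and control zygotes at least 2-fold apart in each experiment. They differed by 3.95 ± 0.57 and 4.15 ± 0.27 on the log2 scale. S31A control lay below MO control by a log2 gap of -1.18 for Med14 and -1.43 for Coa5. Med14 and Med20 belong to the same complex and lay on opposite sides.

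Low levels and opposite calls went together. The measured genes were put in 5 groups of near-equal size by mean level. In the lowest group, with a median of 7.61 CPM, 33.5% had an S31A ratio at least 4-fold above the MO ratio and 24.7% at least 4-fold below it. In the highest group, with a median of 223 CPM, these shares were 0.501% and 0.780%. The separated opposite genes numbered 89, 44, 24, 7 and 2 from the lowest group to the highest, and the separated same-way genes 115, 68, 46, 26 and 3. Same-way genes outnumbered opposite genes in each of the 5 groups. The median SE of a log2 difference over libraries was 3.05 in the lowest and 0.515 in the highest group. A library at 0 counts was found for 51.8% of the separated opposite genes (86 of 166), against 18.9% of all measured genes, and their median mean level was 12.6 CPM against 31.9. Their median gene length was 4042.5 bases against 4402. Of the measured genes on each autosome and the X chromosome, the share that was opposite and separated ran from 0.743% on chromosome 19 to 3.12% on chromosome 7 (18 of 577), with 6 of 324 on X. The part of low levels and of undetected libraries in these calls was not tested.

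**Figure D5:**
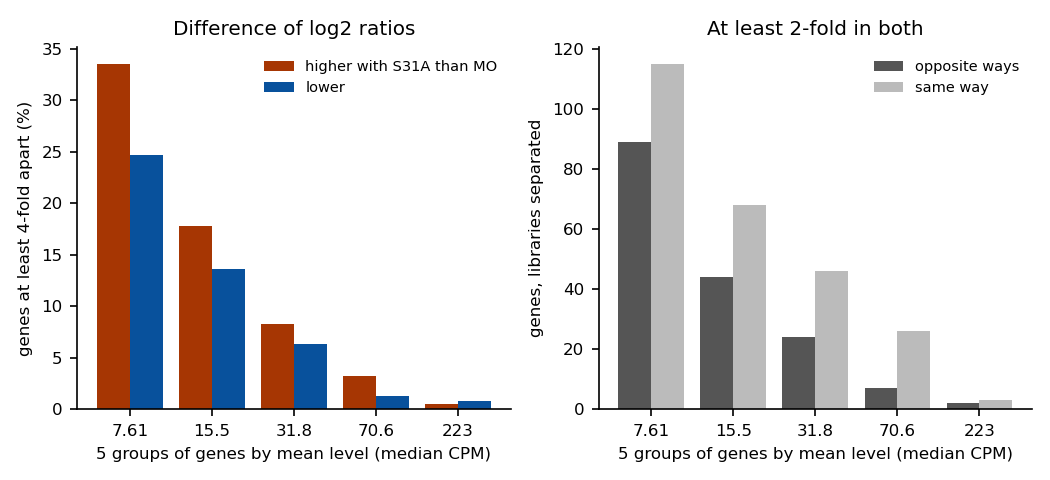
Measured genes in 5 groups of mean level, named by their median CPM: on the left the percent of genes whose ratios differed at least 4-fold in either direction, on the right the number of separated genes at least 2-fold apart in opposite ways or in the same way. Both fall steeply with level, and same-way genes outnumber opposite genes in each group.

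Gene lists were read by counts and medians beside those of all measured genes, whose median log2 ratios were -0.07 with MO and 0.01 with S31A and whose median difference was 0.08. Counts of list members are to be read against the shares of all measured genes given above: 6.01% opposite (3.99% up with S31A and 2.03% down), 1.85% opposite and separated, and 12.6% at least 4-fold higher and 9.32% lower in the difference. Opposite genes were fewer at higher levels, with 353 of 1797 genes in the lowest mean-level group and 2 of 1796 in the highest. The lists were not matched for level. The H3.3 list, with the genes and pseudogenes above, stood at -7.81 with MO and 3.42 with S31A. Of 11 measured of 12 H3.3 chaperones and deposition factors (HIRA, UBN, ASF1, DAXX, ATRX, CHD and NASP genes) 0 were opposite (6.01% of all measured genes) and 0 differed 4-fold, with a median difference of -0.17 (-0.29 to 0.42 over the alternatives of processing). The farthest members were Ubn1, a subunit of the HIRA complex, with 126 and 119 CPM in MO control, 197 and 164 in MO injected, 163 and 267 in S31A control, and 136 and 100 in S31A injected libraries, and Nasp, a histone H3 carrier, with a log2 difference of 1.03 ± 0.64. Ubn1 was higher in MO injected and lower in S31A injected libraries without overlap, by less than 2-fold each. Of 9 measured of 12 histone H3 kinases, a list that includes Chek1 and Aurkb, 0 were opposite and 0 differed 4-fold, with Vrk1 highest at 1.63 ± 1.04 and Chuk lowest at -1.98 ± 3.36, a value that turned to 0.42 with libraries summed.

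The 28 measured of 36 histone acetylation genes had a median difference of 0.00, with 3 at least 4-fold higher (10.7%, against 12.6% of all measured genes), 4 lower (14.3% against 9.32%) and 0 separated opposite genes. Kat2a, an acetyltransferase of the SAGA complex, had 12.8 and 9.54 CPM in MO control, 15.6 and 11.02 in MO injected, 0 and 0 in S31A control, and 31.5 and 4.82 in S31A injected libraries. As for Gm7072, the S31A control alone was low, and the log2 difference was 5.75 ± 1.37. Hdac6, a deacetylase of tubulin, had a log2 difference of -4.86 ± 3.40. In the DNA methylation list 14 of 17 were measured and 0 differed 4-fold, with Mbd4, a DNA glycosylase, at -1.95 ± 2.22 and Trim28, a corepressor of KRAB zinc finger proteins, at -1.82 ± 1.58. For H3K4 and H3K9 methylation 20 of 27 were measured, with the demethylases Kdm3b at -2.37 ± 0.98 and Kdm5a at 2.04 ± 3.35, the value of Kdm5a changing sign when libraries were summed (-0.04). For H3K27 and H3K36 methylation 19 of 23 were measured and 0 differed 4-fold. Of 28 measured of 36 chromatin remodellers 1 was opposite, Smarcc1, a core subunit of SWI/SNF, with overlapping libraries and a log2 difference of 3.48 ± 3.48. Chd5, a remodeller of the NuRD family, had 1.74 and 2.63 CPM in MO control, 1.53 and 8.51 in MO injected, 11.9 and 10.02 in S31A control, and 0 and 0 in S31A injected libraries, at least 76.4-fold lower with S31A, and its MO libraries overlapped.

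Of 21 listed genes of the 2-cell stage, which early transcription of the embryo switches on, 10 were measured. Of these, 3 were up with S31A and down with MO (3.99% of all measured genes were) and 0 the reverse (2.03%). An S31A ratio at least 4-fold above the MO ratio was found for 4 (12.6% of all measured genes) and one as far below it for 0 (9.32%), and the differences ran from 0.01 to 7.47. Their median difference was 1.18, with 0.49 without S31A control library 2 and 2.24 without S31A control library 1 as its lowest and highest values over the alternatives. Duxf3, the homeobox factor Dux that activates many genes of this stage, had 19.9 and 8.38 CPM in MO control, 0 and 6.003 in MO injected, 0 and 0 in S31A control, and 0.597 and 8.56 in S31A injected libraries. Its libraries were separated in both experiments, narrowly in the MO one (8.38 against 6.003 CPM). It was at least 30.5-fold higher with S31A by summed counts, mostly through S31A injected library 2. The log2 difference of Duxf3 was 7.30 ± 3.09. Zscan4d, a target of Dux, had 0 and 6.41 CPM in MO control and 0 and 31.8 in S31A injected libraries, and Gm21761 had 2.72 and 0 CPM in MO control and 18.6 and 1.07 in S31A injected libraries. Both were at 0 in the other 4 libraries, and neither was separated in the MO experiment. Both passed the 10 CPM filter only through the S31A injected sample, and there mostly through 1 library. The filter thus favoured their being up with S31A, so the counts of this list are not read as a trait of its genes. Duxf3, Zscan4d and Gm21761 belong to families of near-identical copies, so their counts are uncertain. Klf17, a Kruppel-like factor stored in the egg, had 2169 and 2097 CPM in MO control, 1908 and 1665 in MO injected, 601 and 534 in S31A control, and 381 and 600 in S31A injected libraries. It differed between the experiments but not between their ratios, with a log2 difference of 0.01. Zscan4d, Gm21761 and Klf17 were named after their values were seen.

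Of 43 measured of 50 oocyte and maternal-effect genes 0 were opposite, against 6.01% of all measured genes, with a median difference of 0.23. Some members are abundant, such as Btg4 at 2973 to 5169 CPM, and only 2 of 1796 genes in the highest mean-level group were opposite. The count of 0 was not matched for level and is not read as a trait of the list. Ccnb3, a cyclin of egg meiosis, had 74.9 and 64.4 CPM in MO control, 0 and 56.9 in MO injected, 40.6 and 19.9 in S31A control, and 14.6 and 19.5 in S31A injected libraries. Its log2 difference of 3.62 ± 4.12 rested on MO injected library 1, and was -0.46 without it. Astl, the egg protease that cuts the zona pellucida after fertilisation, had 20.0 and 29.3 CPM in MO control, 143 and 40.7 in MO injected, 101 and 30.9 in S31A control, and 29.2 and 28.3 in S31A injected libraries. It was separated in both experiments and its log2 difference was -2.61 ± 1.27. Of 36 measured of 41 mitosis and cell cycle genes 0 were opposite, with Cdk6 at 3.003 ± 3.78 and Wee1, the kinase that holds back CDK1, at 2.27 ± 1.31. All 24 DNA replication licensing genes were measured and 0 were opposite, with Cdc6 at -2.62 ± 2.08 and Orc2 at 2.12 ± 1.05. Of the 24, 3 were down in both experiments, as were 5.58% of all measured genes, a count too small to read as a trait of the list.

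In the lists of RNA metabolism the share of opposite genes ran from 6.06% to 10%, near the 6.01% of all measured genes. Of 25 measured of 32 maternal mRNA decay factors 2 were opposite, both up with S31A and separated. Zfp36l2, a zinc finger protein that binds AU-rich mRNA and is needed in the egg, had 4.78 and 6.58 CPM in MO control, 0 and 2.95 in MO injected, 9.998 and 0 in S31A control, and 32.7 and 23.4 in S31A injected libraries. Parn, a poly(A) ribonuclease, had 37.2 and 65.6 CPM in MO control, 15.8 and 19.2 in MO injected, 51.9 and 11.5 in S31A control, and 69.7 and 56.0 in S31A injected libraries. Both were lower in MO injected and higher in S31A injected libraries without overlap, with log2 differences of 7.17 ± 3.49 and 2.84 ± 1.17. Of 33 measured of 41 RNA polymerase II and general factor genes 2 were opposite, of which Taf10, a TFIID and SAGA subunit, was separated, with 13.7 and 19.9 CPM in S31A injected libraries and no more than 2.79 in any other library. Its MO ratio rested on 20 counts in MO control and 2 in MO injected zygotes. Taf10 and Zfp36l2 passed the 10 CPM filter only through the S31A injected sample, so the filter favoured their being up with S31A. Of 13 measured of 21 RNA polymerase III genes 1 was opposite, Bdp1, a subunit of TFIIIB, with 18.7 and 15.1 CPM in MO control, 6.89 and 9.61 in MO injected, 0 and 0 in S31A control, and 35.7 and 1.71 in S31A injected libraries. In ribosome biogenesis 2 of 24 measured genes (Heatr1 and Nop14) and in splicing 3 of 30 (with U2af2 at -3.29 ± 1.31 and Eftud2 at 3.24 ± 2.44) were opposite, none of them separated.

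Of 5 measured interferon-stimulated genes 3 were opposite (60%, against 6.01% of all measured genes), and Irf1 and Trim38 were separated. Irf1, an interferon-induced transcription factor, had 19.7 and 40.6 CPM in MO control, 7.58 and 3.49 in MO injected, 6.63 and 7.74 in S31A control, and 27.2 and 16.2 in S31A injected libraries. Trim38 had 0.217 and 0.329 CPM in MO control, 10.5 and 25.7 in MO injected, 30.3 and 19.9 in S31A control, and 13.22 and 0 in S31A injected libraries. The 2 lay on opposite sides, at 3.93 ± 0.84 and -9.07 ± 3.12. Hspa2, an HSP70 family chaperone, was the opposite gene among 14 measured heat shock and stress genes, with 21.1 and 11.2 CPM in MO control, 6.28 and 2.40 in MO injected, 14.6 and 3.78 in S31A control, and 35.9 and 27.5 in S31A injected libraries. Tfcp2l1 was the opposite gene among 11 measured pluripotency factors, Gab1 among 8 measured imprinted genes, and Ube2r2, at -6.86 ± 1.97, among 26 measured ubiquitin-conjugating enzymes. Of 25 measured kinesins 2 were opposite, of which Kif2c was separated, and of 14 measured kelch-like genes 1 was opposite, with overlapping libraries. In the lists of DNA damage genes (20 measured, with Sesn2 at -5.09 ± 4.73 and Xrcc6 at 2.29 ± 1.90), proteasome subunits (28 measured, with Psmd10 at 4.82 ± 2.05 and Psmc4 at -3.74 ± 2.31) and mitochondrially encoded genes (10 measured) 0 were opposite. Among 15 measured ribosomal protein genes Rpl27a was opposite at -4.46 ± 3.39 with overlapping libraries.

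The 214 measured of 418 zinc finger genes named Zfp and a number, many of which encode KRAB repressors of transposons, had a median log2 ratio of -0.44 with MO and 0.03 with S31A. Their median difference was 0.65 against 0.08 for all measured genes, and 0.63 with undetected members placed at their bound. Over the alternatives it ran from 0.35, without MO injected library 1, to 0.88, with a filter at 1 CPM. Of them 44 had a difference of at least 4-fold higher (20.6%, against 12.6% of all measured genes) and 25 lower (11.7% against 9.32%), 20 were up with S31A and down with MO (9.35%, against 3.99% of all measured genes) and 10 the reverse (4.67% against 2.03%). The 4 that were also separated were 1.87% of the list, near the 1.85% of all measured genes. Zfp617 had 4.35 and 1.81 CPM in MO control, 20.3 and 13.4 in MO injected, 26.5 and 7.74 in S31A control, and 0 and 0 in S31A injected libraries. Zfp260 had 34.0 and 69.2 CPM in MO control, 14.8 and 16.3 in MO injected, 1.31 and 0.176 in S31A control, and 28.6 and 1.39 in S31A injected libraries. Zfp617 was thus absent from the S31A injected libraries, at least 118-fold lower, and Zfp260 was nearly absent from the S31A control. The others were Zfp36l2, an RNA-binding protein of another zinc finger type, and Zfp444. Solute carriers, with 127 measured of 383, had 7 opposite genes up with S31A (5.51%, against 3.99% of all measured genes) and 5 down (3.94% against 2.03%), of which Slc2a9, a urate transporter, was separated at -7.27 ± 1.41.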

How the data were processed

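Per the labels' protocols, total RNA of zygotes was used and cDNA was amplified by PCR. The build mm10 and the tools Bowtie2, featureCounts, FastQC and DESeq2 are named per the submitters' processing notes; versions, annotation, strand setting and multiple matches are not given in the sources used here, so values of overlapping or antisense genes are uncertain. The deposited values are raw counts per gene, not normalized; gene lengths in bases are also as deposited. Nothing says whether the 2 libraries of a sample come from separate embryos. Of the per-sample columns 0 were left out.

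Log2 CPM was computed with edgeR 4.0.16 (R 4.3.3; TMM factors over 8 libraries, prior count 2) and averaged per sample; printed CPM values carry no prior count. A fold against 0 counts is a lower bound that sets the summed sample at 3 counts, the floor; intervals are exact 95% Clopper-Pearson intervals. Intervals and floors cover counting error only, since PCR copies are not separate molecules. The difference was checked over libraries with edgeR's quasi-likelihood test and DESeq2 1.42.0, Benjamini-Hochberg adjusted; the steps were tested on simulated counts. SE is from the spread between libraries.

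Named genes were, among separated opposite genes with an ordinary symbol, the 12 per direction with the largest smaller absolute log2 ratio, the H3.3 features, and per list up to 3 separated opposite genes or else the 1 or 2 members farthest apart. There were 30 lists. Members and lists were chosen with earlier results of these data known. Column numbers 1 and 2 did not pair the samples.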

Additional observations from a re-analysis of the deposited data

How the results depend on the processing

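Counts of genes 4-fold higher, 4-fold lower, up with S31A and down with MO, the reverse, the separated genes of these 2 classes, and separated same-way genes moved with the filter. At 1 CPM they were 3205, 1948, 1007, 433, 181, 89 and 405. At 50 CPM they were 184, 126, 43, 19, 19, 10 and 66. With no filter they were 3332, 1989, 1050, 446, 189, 90 and 409. Summing libraries gave 882, 814, 272, 200, 98, 68 and 240. Leaving out each library in turn gave 1084 to 1480, 894 to 1173, 344 to 534, 175 to 314, 150 to 247, 98 to 147 and 294 to 544; fewer libraries make separation easier. Separated genes up with S31A moved by over 1.5 times without any library but MO control 2, and the reverse class without any. Down with S31A and up with MO (314) moved so without MO injected library 2. Of the 166 separated opposite genes, 119 to 149 were kept. edgeR's quasi-likelihood test called 1 to 4 features when a library was left out, 1 without either S31A control library, and DESeq2 146. With a replicate block on the library number it called 3, the same ones; the numbers correlated between samples at -0.0591 to 0.0856 and share only a number. The gene Kdm5a, at 2.539 without S31A injected library 1, reversed to -0.03615 with summed libraries and -1.249 without MO injected library 2, and Ccnb3, at 7.727 without MO injected library 2, to -0.4594 without MO injected library 1; the cause was not tested. No other named gene with a difference of at least 4-fold changed sign; of those below 4-fold, Chuk, Ash1l and mt-Nd4l did. The medians of the 30 lists were each compared under every alternative setting. Of these comparisons 48 moved by more than the SD of the median over choices of 1 library per sample, and 432 did not. The library spread was widest for genes near 10 CPM.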
